A study of Mus musculus with 10 samples.

Results

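Transcripts of 10 genes for peroxide-removing and related redox enzymes were followed across single pituitary cells of adult mice. These were the glutathione peroxidases Gpx1, Gpx3 and Gpx4, the peroxiredoxins Prdx1 and Prdx2, sulfiredoxin (Srxn1), thioredoxin reductase (Txnrd1), superoxide dismutase (Sod1), the nucleoside diphosphate kinase Nme1 and the dimethylarginine hydrolase Ddah1. The genes were taken by name, and all 10 were among the 15274 gene symbols present in all 10 count tables. Each level is the number of UMIs (unique molecular identifiers, which count captured transcripts once) per 10000 UMIs, with the 7 hormone genes Gh, Prl, Pomc, Tshb, Lhb, Fshb and Cga taken out of the total.

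All libraries were made from whole pituitaries dissociated without enzymes. WT females and WT males of 8 weeks gave 3 libraries each, with replicate 1 of either sex from the 10X Genomics platform and replicates 2 and 3 from Drop-seq. The other 4 libraries were Drop-seq only, with 1 library from 8-week mt/hGRF females, which carry human growth hormone-releasing hormone under a metallothionein promoter, 1 from a WT virgin female of 13 weeks and 2 from lactating WT females of 13 weeks. The 8-week WT Drop-seq libraries, the mt/hGRF library and lactating replicate 2 pooled mice, so a library is not always 1 animal. The study gives CD1 as the strain of its purchased mice and names no strain for the mt/hGRF line.

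The tables kept 978 to 5256 barcodes a library, 23432 in all, with 727046 to 4412089 UMIs outside the hormone genes per library, and any pair of libraries shared at most 6 barcodes. Barcodes in which Gh, Prl and Pomc together took over 30% of the UMIs are called hormone-rich here. They numbered 150 to 1025 a library, 3910 in all, or 9.38% to 35.5% of a library. Barcodes were also sorted into classes by marker genes that are not among the 10 enzymes, and 13808 barcodes showed too few markers for any class or tied between classes. As a check of the tissue, the hormone genes made up 11.8% to 26.2% of all UMIs in the libraries. Several of the 10 genes also stood among the genes that the study listed for a multihormone cell group of these same libraries, so their direction in hormone-rich barcodes is not independent evidence.

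On GRCm38 Gpx1 lies at chr9:108338903-108340343, Gpx3 at chr11:54902453-54910377, Gpx4 at chr10:80047166-80056439, Prdx1 at chr4:116685544-116700822, Prdx2 at chr8:84969587-84974834, Srxn1 at chr2:152105516-152111376, Txnrd1 at chr10:82833951-82897712, Sod1 at chr16:90220754-90226329, Nme1 at chr11:93956979-93968521 and Ddah1 at chr3:145758675-145894277. All are on the plus strand except Nme1.

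Cells that secrete peptide hormones form disulfide bonds in the endoplasmic reticulum, a reaction that releases hydrogen peroxide. Glutathione peroxidases spend glutathione to reduce peroxides: Gpx1 is the main cytosolic form, Gpx3 is secreted, and Gpx4 acts on lipid hydroperoxides in membranes. Peroxiredoxins reduce peroxide with a reactive cysteine, Srxn1 repairs peroxiredoxins that have been over-oxidised, and Txnrd1 recharges thioredoxin, which returns peroxiredoxins to their reduced form. Sod1 converts superoxide to hydrogen peroxide, Nme1 balances nucleoside triphosphates, and Ddah1 degrades methylated arginines that inhibit nitric oxide synthase.

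Gpx1, Gpx3, Gpx4 and Txnrd1 are selenoproteins: a TGA codon inside the reading frame is read as selenocysteine, the residue that carries out the reaction. The coding sequence around that codon is shown for these 4 genes because it is the feature that sets them apart from the other members. It was read from the annotated coding sequence on GRCm38 (mm10), all on the plus strand, with the codon in capitals. The codon lies at chr9:108339451-108339453 in exon 1 of Gpx1, at chr11:54907256-54907258 in exon 2 of Gpx3, at chr10:80054737-80054739 in exon 3 of Gpx4 and at chr10:82896037-82896039 in exon 14 of Txnrd1.
Gpx1: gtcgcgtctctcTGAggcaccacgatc
Gpx3: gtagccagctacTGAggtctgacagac
Gpx4: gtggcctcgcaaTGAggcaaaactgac
Txnrd1: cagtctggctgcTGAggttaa
The codon is number 47 of 201 in Gpx1, 73 of 226 in Gpx3 and 73 of 197 in Gpx4, and in Txnrd1 it is number 498 of 499, the codon before the last one that is read.

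Antioxidant genes are often controlled through the antioxidant response element, the site of the factor Nfe2l2 (Nrf2), with the core TGACNNNGC. This core was searched on both strands of the RefSeq promoter windows (GRCm38.p6), from 250 bases before to 50 bases after each start. It was found in 12.4% of 32851 windows, and in 6 of the 16 windows of the members, which belonged to 5 of the 10 genes. The share over all genes was not counted. Of the 5 genes, Srxn1, Prdx1, Txnrd1 and Nme1 were called higher in hormone-rich barcodes and Sod1 was not. Gpx3, Ddah1 and Prdx2 were called higher there without a match. The matches are shown, read on the strand that carries the core, with the core in capitals.
Srxn1, chr2:152105542-152105570, minus strand: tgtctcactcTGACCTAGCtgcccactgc
Prdx1, chr4:116685456-116685484, minus strand: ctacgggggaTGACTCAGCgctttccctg
Txnrd1, chr10:82859104-82859132, minus strand: cgtgtcagaaTGACAAAGCaaaaatccag
Nme1, chr11:93968220-93968248, plus strand: ccccttcagaTGACAAGGCtttaccgccg
Sod1, chr16:90220696-90220724, minus strand: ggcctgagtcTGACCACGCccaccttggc
Counted from the start along the gene's own strand, the upstream edge of the core lay at 28 in Srxn1, -133 in Prdx1, -92 in Txnrd1 and -56 in Sod1. In Nme1 it lay at 34 from 1 annotated start and -213 from the other. All 5 cores lie on the strand opposite to their gene, so this edge is the last base of the core as printed. No window of Gpx1, Gpx3, Gpx4, Prdx2 or Ddah1 held these letters. A match of this kind describes the sequence and does not show that a factor binds there.

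In hormone-rich barcodes 7 of the 10 genes were higher than in the other barcodes of the same libraries, and none was lower. Ddah1 was 5.93-fold, Gpx3 5.47-fold and Nme1 2.68-fold higher, Prdx2, Srxn1, Prdx1 and Txnrd1 were higher by smaller amounts, and Gpx1, Gpx4 and Sod1 did not pass the test. The test was edgeR's quasi-likelihood test on UMIs summed per library and state with the library as a block, two-sided, with Benjamini-Hochberg adjustment over 10986 genes. Of all genes tested, 18.1% were called higher and 25% lower at an adjusted p under 0.05. The median log2 fold change was 0.81 over the members and -0.14 over all genes. The split between directions depended on the scaling: 41.9% of the called genes were higher with TMM and 69.1% with library totals alone, which moved the median of all genes to 0.14.

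The make-up of the hormone-rich barcodes differed between libraries. Gh was the leading hormone in 72.5%, 84.7% and 24.0% of them in the 8-week females, where Pomc led in 67.3% of replicate 3, and in 94.2%, 90.4% and 78.7% in the males. Prl led in most of those of the virgin and lactating females.

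Gpx3 showed the clearest separation. Its level in hormone-rich barcodes was 11.5, 10.1 and 4.47 in the 8-week females, 6.38, 7.44 and 6.85 in the 8-week males, 12.4 in the mt/hGRF females, 10.6 in the virgin and 8.37 and 7.08 in the lactating females. In the other barcodes it was 1.01, 1.21 and 0.974, then 0.657, 1.53 and 1.62, then 1.60, 1.84, 1.00 and 1.41 in the same order. The lowest hormone-rich value lay above the highest value of the other barcodes, so the states did not overlap, and the ratio within a library ran from 4.23 to 11.4. The log2 fold change was 2.45 ± 0.17 (SE, n = 10 libraries, edgeR adjusted p = 6.1e-09), and 2.40 to 2.51 with any 1 library left out.

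Ddah1 was low in both 10X Genomics libraries, where its hormone-rich levels of 0.263 and 0.491 rested on 7 and 17 UMIs. In the Drop-seq libraries it reached 6.99 and 0.909 in 8-week females, 3.57 and 1.95 in 8-week males, 2.68 in mt/hGRF females, 1.68 in the virgin and 1.48 and 0.990 in lactating females. The other barcodes ranged from 0.0689 to 0.846. Every library had the higher value in its hormone-rich barcodes, with a median ratio of 7.22, although the ranges over libraries overlapped. The log2 fold change was 2.57 ± 0.20 (SE, n = 10, edgeR adjusted p = 1.4e-08).

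Nme1 was 3.87, 4.97 and 1.47 in hormone-rich barcodes of the 8-week females, 2.54, 2.58 and 1.83 in those of the males, 6.26 with mt/hGRF, 3.61 in the virgin and 3.74 and 3.22 in lactating females. The other barcodes held 0.582 to 1.92, with the 2 highest values, 1.71 and 1.92, in the 10X Genomics libraries. All 10 libraries had the higher level in hormone-rich barcodes, and the log2 fold change was 1.42 ± 0.27 (SE, n = 10, edgeR adjusted p = 0.00040). Nme1 overlaps the readthrough gene Gm20390 on its own strand and is close in sequence to Nme2, and these had 5 and 73 UMIs in all libraries together against 3359 for Nme1, so reads may be split among them.

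Among the peroxiredoxins, Prdx2 was 1.47 to 4.47 in hormone-rich and 0.601 to 1.93 in the other barcodes, and Prdx1 was 1.40 to 6.69 against 0.832 to 3.65. Both were higher in hormone-rich barcodes of 10 of 10 libraries. The log2 fold change was 1.01 ± 0.18 for Prdx2 and 0.75 ± 0.21 for Prdx1 (SE, n = 10, edgeR adjusted p = 0.00016 and 0.0070). A copy named Prdx2-rs3 had 17 UMIs in all. Prdx2 overlaps Junb and Rnaseh2a, Sod1 overlaps Scaf4, and Txnrd1 overlaps Gm38560 and Gm47073, on the opposite strand. On their own strand Txnrd1 overlaps Eid3 and Ddah1 overlaps Rpl36a-ps2, and what these do to the counts was not tested.

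Srxn1 was higher in the hormone-rich barcodes of 9 of 10 libraries. The exception was the virgin library, with 0.728 in hormone-rich and 1.23 in other barcodes. Over the libraries its level was 0.350 to 1.64 against 0.131 to 1.23, and the log2 fold change was 0.88 ± 0.24 (SE, n = 10, edgeR adjusted p = 0.0076). Txnrd1 was higher in all 10 libraries, but by a median ratio of only 1.53, and its log2 fold change of 0.43 ± 0.15 had an edgeR adjusted p of 0.028. Without 8-week female replicate 1, mt/hGRF replicate 1 or virgin replicate 1 the adjusted p of Txnrd1 was 0.053, 0.072 or 0.055.

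**Figure D1:**
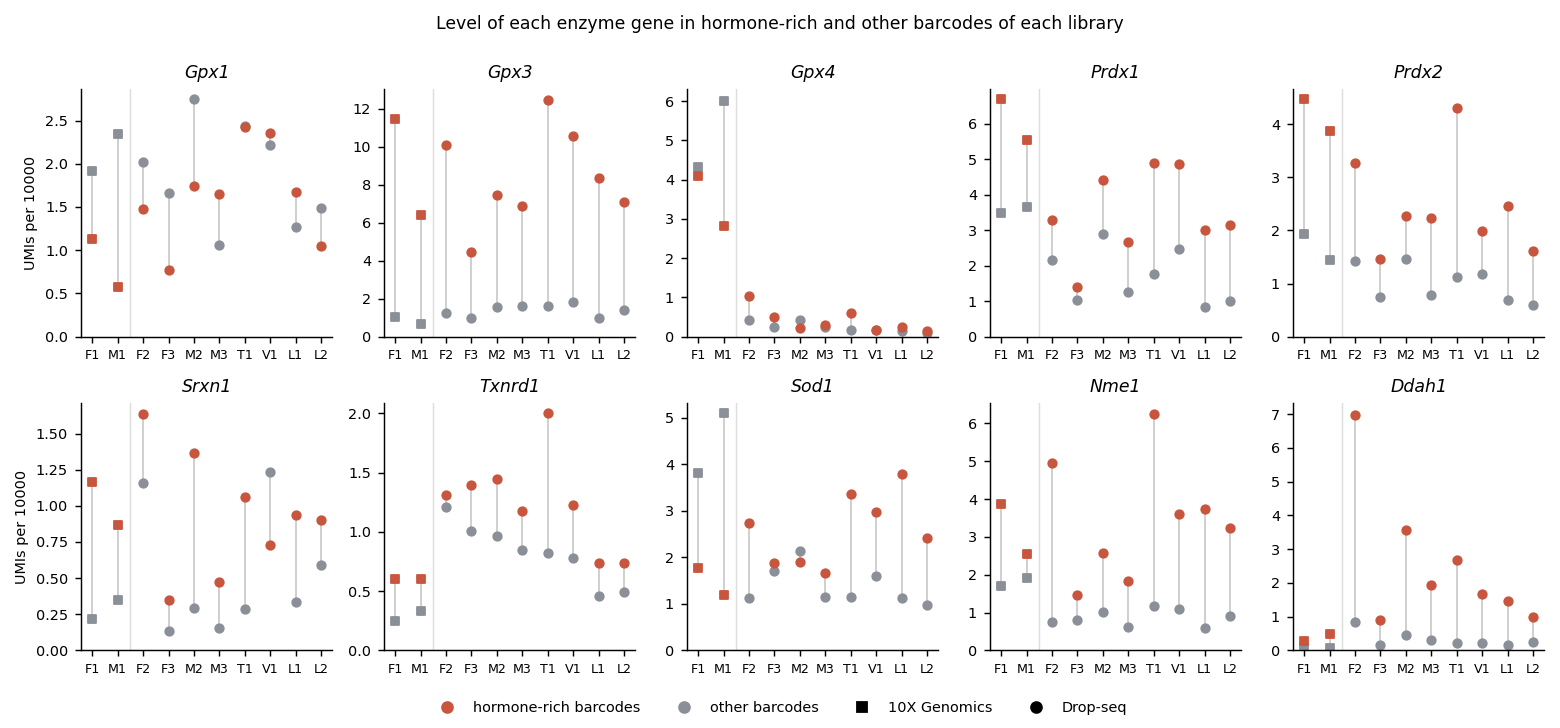
Level of each gene in UMIs per 10000 (vertical axis, own scale per gene) in hormone-rich and other barcodes of each library (horizontal axis); F and M are 8-week WT females and males, T mt/hGRF females, V the virgin and L lactating females, each with its replicate number, squares are 10X Genomics and circles Drop-seq. Gpx3 is higher in the hormone-rich barcodes of all 10 libraries without overlap, whereas Gpx1, Gpx4 and Sod1 lie on either side depending on the library.

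Gpx1, Gpx4 and Sod1 were not higher against all other barcodes. Gpx1 in hormone-rich barcodes was 1.13, 1.47 and 0.769 in 8-week females, 0.577, 1.75 and 1.65 in males, 2.43 with mt/hGRF, 2.35 in the virgin and 1.67 and 1.05 in lactating females. In the other barcodes it was 1.91, 2.02 and 1.66, then 2.34, 2.76 and 1.06, then 2.44, 2.21, 1.27 and 1.49. It was higher in hormone-rich barcodes of 3 of 10 libraries, and the log2 fold change was -0.66 ± 0.27 (SE, n = 10, edgeR adjusted p = 0.054). Without virgin replicate 1, lactating replicate 1 or 8-week male replicate 3 it was called lower, at -0.75, -0.77 and -0.79.

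The level of Sod1 went in opposite directions on the platforms. In the female and the male of 10X Genomics it was 1.77 and 1.18 in hormone-rich against 3.81 and 5.11 in other barcodes. On this platform 127 barcodes gated by proliferation markers held 2320 Sod1 UMIs, and the 3027 other barcodes held 3279. These proliferating barcodes had medians of 21090 and 23417 UMIs outside the hormone genes, female before male, against 1111 and 849 in other barcodes. At least 1 Sod1 UMI was seen in 18.7% of hormone-rich and 9.65% of other barcodes of the female. In the male these shares were 11.2% and 13.7%. In Drop-seq the hormone-rich barcodes held 1.65 to 3.79 and the others 0.979 to 2.14, and 7 of the 8 libraries had the higher value in the hormone-rich ones. Over all libraries the log2 fold change was 0.24 ± 0.38 (SE, n = 10, edgeR adjusted p = 0.64), and without 8-week male replicate 1 it was 0.57 (edgeR adjusted p = 0.046). Gpx4 was 4.10 and 2.83 against 4.32 and 6.01 in the 10X Genomics libraries but only 0.150 to 1.04 against 0.0935 to 0.429 in Drop-seq, and its log2 fold change was -0.03 ± 0.35 (SE, n = 10, edgeR adjusted p = 0.95).

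The choice of the other barcodes changed the call for these 3 genes. When the other barcodes were limited to those gated as hormone-making classes, all 10 genes were higher in hormone-rich barcodes, against 26.3% of 9148 genes. Gpx1 then had a log2 fold change of 1.81 ± 0.18, Gpx4 of 0.81 ± 0.22 and Sod1 of 1.12 ± 0.15 (SE, n = 10, edgeR adjusted p = 1.2e-10, 0.0018 and 8.9e-08). Gpx3 and Ddah1 moved little, to 2.19 and 2.24, while Prdx1 went from 0.75 to 1.75. Only the other side was gated here. The hormone-rich side kept all its barcodes, of which 15.3% to 82.5% in a library had no class. The 2 sides thus differed in gating as well as in hormone share.

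Within somatotrope-gated barcodes alone, 7 of 10 genes were higher in the hormone-rich ones, against 21% of 4425 genes. Gpx1 was 0.471 to 2.90 in hormone-rich and 0.266 to 0.943 in the other somatotrope-gated barcodes of 9 libraries, with a log2 fold change of 1.06 ± 0.29 (SE, n = 9, edgeR adjusted p = 0.0011). Gpx3 was 5.72 to 14.0 against 0.930 to 2.75, with no overlap, and its log2 fold change was 2.03. Srxn1, Txnrd1 and Gpx4 did not pass, at 0.27, 0.56 and 0.56, with edgeR adjusted p = 0.45, 0.12 and 0.10.

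**Figure D2:**
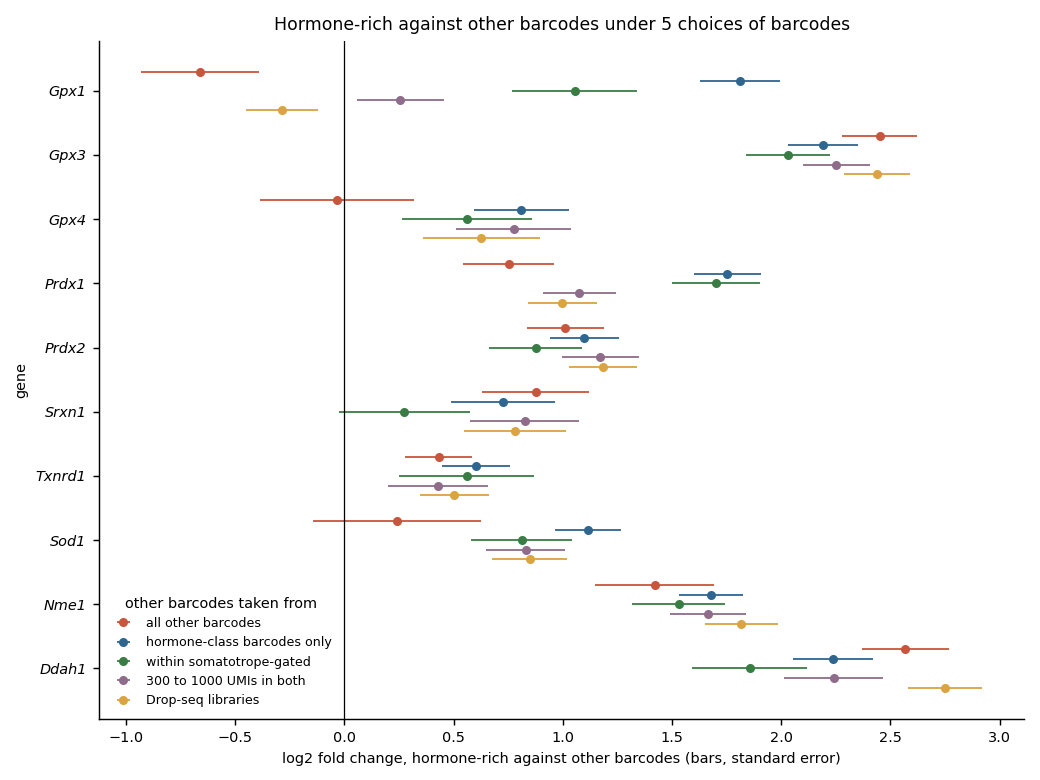
Log2 fold change of hormone-rich against other barcodes (horizontal axis, bars 1 standard error derived from the edgeR test) for each gene (vertical axis) with 5 choices of barcodes or libraries. All genes but Gpx1 and Gpx4 have estimates above 0 with every choice, and Gpx1 goes from -0.66 against all other barcodes to 1.81 against hormone-class barcodes.

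The states also differed in depth and in other transcripts. Hormone-rich barcodes had the lower median of UMIs outside the hormone genes in 10 of 10 libraries, at 246.5 to 770 against 451 to 1111. With barcodes of both states held to 300 to 1000 such UMIs, 8 of the 10 genes were higher, against 16.5% of 8326 genes. Gpx4 and Sod1 were then called higher, at 0.78 and 0.83, Txnrd1 was not, at 0.43 (edgeR adjusted p = 0.12), and Gpx1 was at 0.26 (edgeR adjusted p = 0.31). Globin transcripts were 5.11 to 21.2 per 10000 in hormone-rich and 60.8 to 704 in the other barcodes. At least 1 of the macrophage markers was seen in 1.33% to 6.43% of hormone-rich and 3.76% to 12.5% of other barcodes, and an endothelial one in 1.33% to 5.85% and 1.01% to 3.02%. The mean mitochondrial share was 2.49% to 3.68% in hormone-rich and 1.77% to 3.73% in other barcodes, and was higher in the hormone-rich ones of 9 of 10 libraries. What these transcripts contribute to the differences was not tested. Without barcodes that held over 100 ribosomal pseudogene UMIs per 10000, Sod1 had a log2 fold change of 1.19 and Gpx4 of 0.66, both called higher by edgeR.

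Barcodes with few UMIs, at most 100 in the 10X Genomics tables and under 300 in Drop-seq, also held hormone transcripts, at 31.5% and 38.0% of UMIs in the 10X Genomics libraries and 10.4% to 45.4% in 7 Drop-seq libraries. Gpx3 in these barcodes was 3.19 and 3.20 on 10X Genomics and 1.01 to 4.43 on Drop-seq, below the hormone-rich level in 9 of 9 libraries and above the level of the other kept barcodes in 8. Prdx2, Srxn1, Txnrd1 and Ddah1 were also higher in hormone-rich than in low-UMI barcodes in 9 of 9 libraries, and Nme1 in 8. Prdx1 was higher in 6, Sod1 in 5, and Gpx1 and Gpx4 in 4 each. On 10X Genomics, female before male, Prdx1 was 6.17 and 6.87 in low-UMI and 6.69 and 5.54 in hormone-rich barcodes. Some margins were small. Ddah1 was 3.57 in hormone-rich and 3.44 in low-UMI barcodes of 8-week male replicate 2, and Srxn1 1.64 and 1.61 in female replicate 2. Low-UMI barcodes were above the other kept ones in 7 libraries for Prdx1, Prdx2, Srxn1, Txnrd1, Nme1 and Ddah1. They were so in 6 for Gpx4 and Sod1 and in 1 for Gpx1. The part that free RNA takes in these levels was not tested.

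Across bins of the hormone share, Gpx3 rose in the median over libraries from 0.954 below 5% to 1.31, 1.60, 2.27, 5.46, 7.97 and, above 50%, 10.8. These are descriptions, with globin-gated barcodes left out of the bins. Ddah1 had medians of 0.126 in the lowest and 2.67 in the highest bin. The top bin was above the lowest in 10 of 10 libraries for Gpx3, Ddah1, Nme1, Prdx1 and Prdx2, in 8 for Srxn1 and Txnrd1, in 7 for Sod1, in 3 for Gpx4 and in 2 for Gpx1.

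Gpx1, Prdx1 and Sod1 were higher at either end than in between. Gpx1 had a median of 4.39 below 5%, 0.623 at 5% to 10%, 0.427 at 10% to 20% and 2.12 above 50%. Prdx1 went from 4.20 to 1.25 and back to 4.63, and Sod1 from 1.89 to 0.866 and 2.93. For these 3 genes the lowest bin was above the 5% to 10% bin in 10 of 10 libraries, and the top bin was above the 5% to 10% bin in 9 for Gpx1 and 10 for Prdx1 and Sod1. The same counts were 8 and 10 for Nme1 and 8 and 9 for Gpx4.

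**Figure D3:**
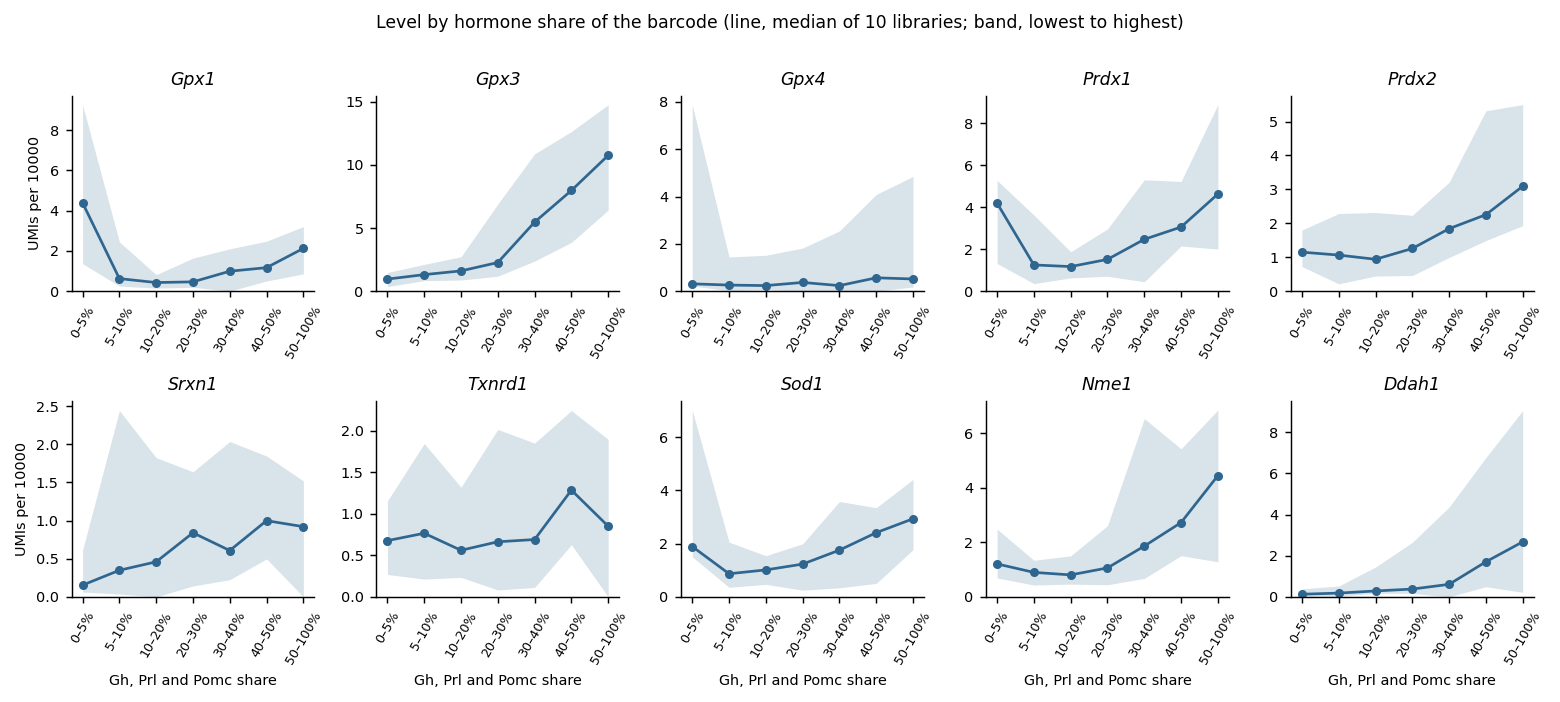
Level in UMIs per 10000 (vertical axis) by share of Gh, Prl and Pomc among a barcode's UMIs (horizontal axis); lines join the medians of 10 libraries and bands run from the lowest to the highest library. Gpx3 climbs from 0.954 to 10.8, and Gpx1 is highest in the lowest bin at 4.39.

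Marker-gated classes separated the family further. Somatotropes make growth hormone, lactotropes prolactin, gonadotropes the gonadotropins and melanotropes Pomc-derived peptides. Each class with at least 20 barcodes in at least 3 libraries was compared with all other gated barcodes of the same libraries by edgeR with library totals as the scaling, so the comparisons share barcodes on the other side. TMM moved the median of all genes from 0.46 to -0.04 in somatotrope-gated, 0.26 to -0.02 in lactotrope-gated, 0.19 to -0.37 in gonadotrope-gated, 0.00 to -0.11 in melanotrope-gated, -0.33 to -0.46 in macrophage-gated, 0.02 to -0.79 in stroma-gated, -1.22 to -0.67 in proliferating and -3.12 to -1.0 in globin-gated barcodes. The members called below passed with totals, with TMM and with globin genes left out, unless another scaling is named.

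Gpx1 was high in macrophage-gated and globin-gated barcodes. In macrophage-gated barcodes it was 7.47, 12.3 and 10.7 in 8-week females, 8.43, 10.8 and 12.6 in males, 11.7 with mt/hGRF, 10.4 in the virgin and 8.69 and 12.5 in lactating females. All of these lay above the highest values of the proliferating class, 4.47, and of somatotrope-gated barcodes, 1.39. Globin-gated barcodes of 6 libraries held 2.45 to 16.9, so these 2 classes overlapped. Globin genes stay in the totals behind these levels and lower the globin-gated one, so the 2 classes are not ranked. With globin genes left out of the totals, the median of all genes in globin-gated barcodes moved from -3.12 to -0.63. The log2 fold change of Gpx1 was 2.72 ± 0.22 in macrophage-gated (SE, n = 10, edgeR adjusted p = 6.5e-14) and 1.79 ± 0.52 in globin-gated barcodes (SE, n = 6, edgeR adjusted p = 0.00063), where TMM gave 3.94.

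Few of the macrophage-gated and globin-gated barcodes were hormone-rich, 0% to 3.01% and 0% to 7.69% over the libraries, so most of them lay on the other side of the hormone comparison. In the hormone-making classes Gpx1 was lower, with log2 fold changes of -2.42 ± 0.20 in somatotrope-gated, -2.73 ± 0.22 in lactotrope-gated, -2.59 ± 0.41 in gonadotrope-gated and -3.28 ± 0.27 in melanotrope-gated barcodes (SE, edgeR, n = 10, 10, 7 and 10). Its mean level there was 0.320 to 0.640.

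Gpx3 was highest in lactotrope-gated barcodes, at 4.12 ± 2.12 (SD, n = 10), above stroma-gated ones at 3.29 ± 1.85 (n = 8) and somatotrope-gated ones at 2.71 ± 1.10 (n = 10), and these classes overlapped. Stroma-gated barcodes were above somatotrope-gated ones on Drop-seq, at 3.87 and 2.81, but below them on 10X Genomics, at 1.56 and 2.27. The single values in lactotrope-gated barcodes were 2.53, 4.09 and 1.95 in 8-week females, 4.40, 8.92 and 4.51 in males, 3.81 with mt/hGRF, 6.15 in the virgin and 2.28 and 2.54 in lactating females. The log2 fold change in lactotrope-gated barcodes was 1.21 ± 0.20 (SE, n = 10, edgeR adjusted p = 2.7e-05). Gpx3 was lower in macrophage-gated, at -0.95 ± 0.23, and in proliferating barcodes, at -2.24 ± 0.47 (SE, n = 10 and 8, edgeR adjusted p = 0.00039 and 0.0099). Both calls held with any 1 library left out and in Drop-seq alone. In somatotrope-gated barcodes it was called only with totals, at 0.59, against 0.09 with TMM, and with totals not without the mt/hGRF library, at 0.47.

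Ddah1 was highest in somatotrope-gated barcodes, at 0.254 and 0.275 on 10X Genomics and 0.699 to 2.98 on Drop-seq, with a mean of 1.02 ± 0.76 (SD, n = 10). Within this class its mean was 2.88 in hormone-rich barcodes (n = 9) and 0.566 in the others (n = 10). The log2 fold change of Ddah1 in the whole class was 2.14 ± 0.26 (SE, n = 10, edgeR adjusted p = 5.9e-08). It was lower in melanotrope-gated, macrophage-gated and proliferating barcodes, at -1.61, -2.83 and -1.93. The call in proliferating barcodes was lost in Drop-seq alone, at -1.43, and without 8-week female replicate 1 or 3 or male replicate 1 or 3, at -1.94 to -1.62. In the macrophage-gated barcodes of all libraries together only 7 UMIs of Ddah1 were seen.

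Among the classes tested, Prdx1 was highest in macrophage-gated barcodes, at 5.64 ± 0.93 (SD, n = 10), with 6.74, 6.56 and 5.34 in 8-week females, 6.66, 4.93 and 5.50 in males, 6.23 with mt/hGRF, 5.73 in the virgin and 3.91 and 4.81 in lactating females. The proliferating class, at 5.45 on 10X Genomics and 2.30 on Drop-seq, and the stroma-gated one, at 2.67 and 2.56, followed, in this order on 10X Genomics and the reverse on Drop-seq. Barcodes gated by stem cell markers reached the minimum of 20 barcodes in only 2 libraries and were not tested. Their Prdx1 level was 9.14 and 9.57, from 70 UMIs, above every macrophage-gated value. Prdx1 was higher in macrophage-gated barcodes by 1.52 ± 0.21 (log2, SE, n = 10, edgeR adjusted p = 5.5e-08) and lower in somatotrope-gated, lactotrope-gated, gonadotrope-gated and melanotrope-gated barcodes, at -0.79, -0.59, -1.24 and -1.61, of which the gonadotrope-gated call was lost without 8-week male replicate 3, at -1.08. Prdx2 had means over the tested classes from 0.882 to 1.63, in a different order on either platform, with overlap between all neighbours, and stem-marker barcodes of 2 libraries held 2.38 and 2.79. It was lower in macrophage-gated and melanotrope-gated barcodes, at -0.68 and -0.53, the latter call being lost on leaving out any 1 of 7 libraries, and in globin-gated barcodes it was called higher only with TMM, at 2.26, and with globin genes out, at 2.49.

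Among the classes tested, Sod1 was highest in proliferating barcodes, with a wide spread, 9.71 and 7.81 on 10X Genomics and 1.39 to 4.28 in 6 Drop-seq libraries. Within Drop-seq the mean was 2.89 (n = 6), and the untested stem-marker barcodes of 2 Drop-seq libraries held 3.59 and 4.17. The log2 fold change was 1.63 ± 0.50 (SE, n = 8, edgeR adjusted p = 0.034). No member was called higher in proliferating barcodes without 8-week female replicate 1, male replicate 1, male replicate 2, female replicate 3 or male replicate 3, nor with Drop-seq libraries alone. Sod1 was lower in somatotrope-gated, gonadotrope-gated, melanotrope-gated and macrophage-gated barcodes, at -0.89, -1.20, -0.94 and -0.96. None of these 4 calls held in Drop-seq alone, where edgeR gave -0.36, -0.73, -0.43 and -0.40, and the gonadotrope-gated one was lost without 8-week male replicate 1.

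Srxn1 was 0.628 ± 0.470 in somatotrope-gated barcodes (SD, n = 10) and was called higher there with totals and with globin genes out, at 0.92 and 0.81, but not with TMM, at 0.44, nor with totals without 8-week female replicate 1, at 0.69. It was lower in macrophage-gated and proliferating barcodes, at -1.64 and -3.27, where 18 and 10 UMIs were seen in all. In proliferating barcodes its call was lost in Drop-seq alone, at -1.44, and without the same 4 libraries as that of Ddah1, at -3.20 to -2.52. Gpx4 was lower in lactotrope-gated and melanotrope-gated barcodes, at -1.30 ± 0.26 and -1.68 ± 0.36 (SE, n = 10, edgeR adjusted p = 0.00030 and 0.00015). Neither was called in Drop-seq alone, at -0.61 and -0.36 (edgeR adjusted p = 0.20 and 0.60). With totals, Txnrd1 and Nme1 passed only in the globin-gated class, where TMM gave no call, and with TMM both passed as lower in somatotrope-gated barcodes, at -0.53 and -0.62.

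The counts that follow are with library totals. In somatotrope-gated barcodes 3 members were higher and 3 lower, against 34.6% and 10.1% of all genes, and with all 3 scalings 1 and 3 were. With TMM 1 was higher and 7 lower there, and 32.1% of genes were called. In lactotrope-gated barcodes 1 was higher and 3 lower, against 21.5% and 11.3%. Gonadotrope-gated barcodes had 0 and 3, against 7.43% and 5.38%, and melanotrope-gated ones 0 and 6, against 13.3% and 17.8%. Macrophage-gated barcodes had 2 and 5, against 26.3% and 40.4%, shares near those of all genes. Proliferating barcodes had 1 and 3, against 3.68% and 18.9%, and globin-gated ones 1 and 8, against 1.81% and 96.2%. None of the 8 lower calls in globin-gated barcodes held with all 3 scalings, and TMM called 5.79% of genes there. Stroma-gated barcodes had no member called by edgeR, against 5.95% of genes higher and 2.25% lower, with 2 at an unadjusted p under 0.05, as had 1888 of 10998 genes, and 2 called lower by DESeq2.

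**Figure D4:**
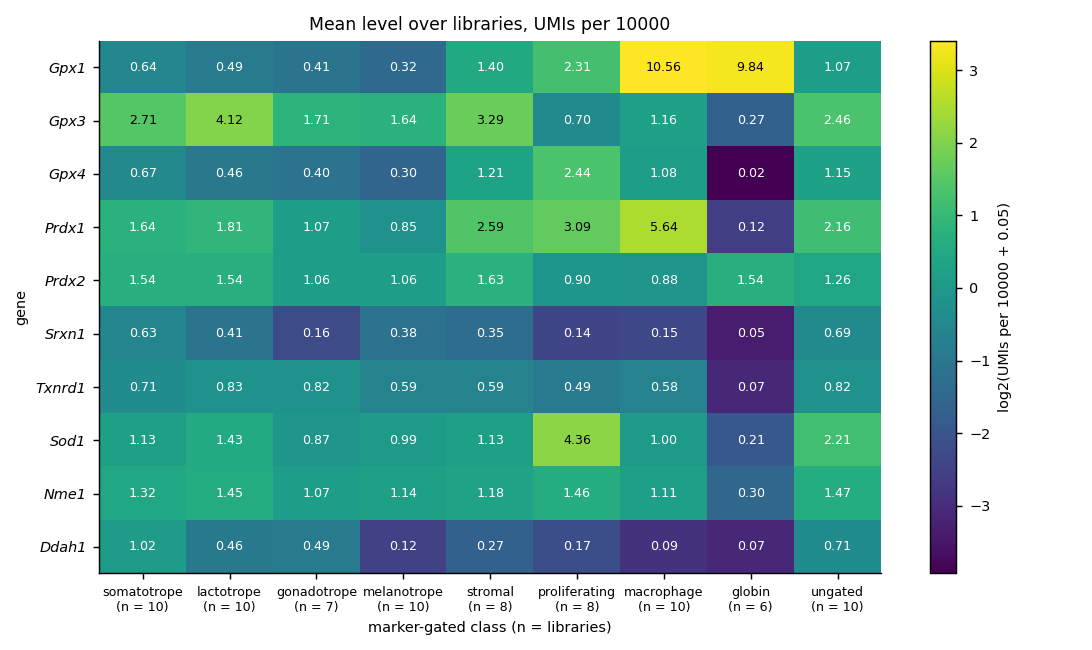
Mean level over libraries in UMIs per 10000 (numbers) for each gene (rows) and marker-gated class (columns, n libraries with at least 20 barcodes); colour is log2 of the level plus 0.05. Gpx1 stands out in macrophage-gated and globin-gated barcodes at 10.6 and 9.84, Gpx3 in lactotrope-gated ones at 4.12.

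Across the 72 sums per library and class, the genes most like Gpx3 were Pcsk1n, Resp18 and Prnp, with Pearson r of 0.793, 0.780 and 0.772 on the log scale. Those most like Gpx1 were Fth1, Tyrobp and Pabpc1, at 0.758, 0.691 and 0.687. Prdx1 was nearest to Cox8a, Slc25a5 and Dynll1, at 0.840, 0.832 and 0.831, Gpx4 to the ribosomal protein genes Rpl19, Rpl11 and Rps23, at 0.868, 0.855 and 0.845, Sod1 to Serbp1, Psma7 and Cnbp, at 0.777, 0.772 and 0.763, and Nme1 to Krtcap2, Ndufa6 and Dpm3, at 0.722, 0.703 and 0.698. Txnrd1 was nearest to Gtf2f1, Zfp148 and Rock1, at 0.746, 0.734 and 0.726, Ddah1 to Mdm1, Fam171b and Map7d2, at 0.683, 0.637 and 0.627, Srxn1 to Pld3, Zfp451 and Alkbh6, at 0.613, 0.613 and 0.599, and Prdx2 to S100a11, Smdt1 and Rpl37a, at 0.526, 0.442 and 0.423. Among the members themselves Gpx3 and Srxn1 had r of 0.531, Prdx1 and Nme1 0.527, and Gpx1 and Gpx3 -0.412. These sums share libraries, platform and depth, so the values are descriptions.

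Of 45 other redox genes, 41 were tested between hormone-rich and other barcodes, and 18 were higher and 4 lower, against 18.1% and 25% of all genes, with a median log2 fold change of 0.48 against -0.14 for all genes. The largest changes were in Nme2 at 1.86 ± 0.49, the endoplasmic reticulum peroxidase Gpx7 at 1.76 ± 0.32, the selenoprotein Selenok at 1.55 ± 0.19, and the glutaredoxins Glrx and Glrx5 at 1.55 ± 0.25 and 1.47 ± 0.16 (SE, n = 10, edgeR adjusted p = 0.0061, 0.00024, 3.2e-06, 7.9e-05 and 7.4e-07). The selenium carrier Selenop was lower, at -1.30 ± 0.16 (SE, n = 10, edgeR adjusted p = 5.6e-06). Nme2 rested on 73 UMIs, with none in 2 libraries, and may share reads with Nme1. The other 3 that were lower were Gclc, of glutathione synthesis, the thioredoxin-binding Txnip, and Nfe2l2 itself, at -0.89, -0.48 and -0.44. Gclc, Txnip and Nfe2l2 were named after their values were seen.

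Whether the enzymes change with sex, lactation or growth hormone-releasing hormone was asked in 1 fit over all 10 libraries with platform as a term, separately for hormone-rich barcodes and for the others without globin-gated ones. No member was called in any of the 3 comparisons by edgeR or by DESeq2. Few genes of any kind were: between male and female, 0.0546% of 7326 genes in hormone-rich and 0.0798% of 13776 in the other barcodes. Between lactating and virgin mice it was 0.0137% and 0%, and between mt/hGRF and WT females 0.0273% and 0.0871%. At an unadjusted p under 0.05 stood 1 member in each of 2 of the 6 fits, where 254 of 7326 genes (male against female, hormone-rich) and 539 of 13776 (lactating against virgin, other barcodes) did so. The standard errors of the members were 0.27 to 0.89 on the log2 scale, so the lack of calls does not show that levels were equal.

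In males against females the log2 fold changes ran from -1.01 to 0.17 in hormone-rich and -0.40 to 0.48 in other barcodes. The only member with an unadjusted p under 0.05 was Gpx4 in hormone-rich barcodes, at 4.10, 1.04 and 0.489 in females and 2.83, 0.228 and 0.295 in males. The ranges overlapped, but the male was lower in each of the 3 same-numbered pairs, of which the Drop-seq ones rested on 19 against 3 and 7 against 5 UMIs (log2 fold change -1.01 ± 0.39, SE, n = 3 and 3, edgeR adjusted p = 1.0). Sod1 in hormone-rich barcodes was also lower in the male of all 3 pairs. In the other barcodes, with globin-gated ones kept, Prdx1 and Gpx4 were higher in the male of all 3. For Gpx4 the Drop-seq values there were close, at 0.423 and 0.232 in females and 0.429 and 0.240 in males. A shared sign in 3 pairs was not tested, and its share over all genes was not counted. Gpx3 in hormone-rich barcodes was 8.68 ± 3.70 in females and 6.89 ± 0.53 in males (SD, n = 3 each), at -0.40 ± 0.36, and the lowest female value, 4.47, was that of replicate 3, in which Pomc led. The difference between the sexes in the hormone-rich to other change was called by edgeR for 0 of 9700 genes, and among the members Gpx4 alone had an unadjusted p under 0.05, at -1.78 ± 0.76 (log2, SE).

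In lactating against virgin mice the range was -0.67 to 0.49 in hormone-rich and -1.19 to 0.12 in other barcodes. Prdx1 in the other barcodes was 0.832 and 0.992 in the lactating libraries and 2.46 in the single virgin library, with an unadjusted p under 0.05 (log2 fold change -1.19 ± 0.52, SE, n = 2 and 1, edgeR adjusted p = 1.0). With 1 virgin library, that library and the condition cannot be told apart. In mt/hGRF against WT females the range was -0.47 to 0.91 and -0.83 to 0.87, with Nme1 highest in both states at 0.91 ± 0.51 and 0.87 ± 0.42 (SE, n = 1 and 3, edgeR adjusted p = 0.56 and 0.65). Its level in hormone-rich barcodes was 6.26 in the mt/hGRF library, above the 1.47 to 4.97 of the WT females, but with 1 mt/hGRF library the library and the genotype cannot be told apart.

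**Figure D5:**
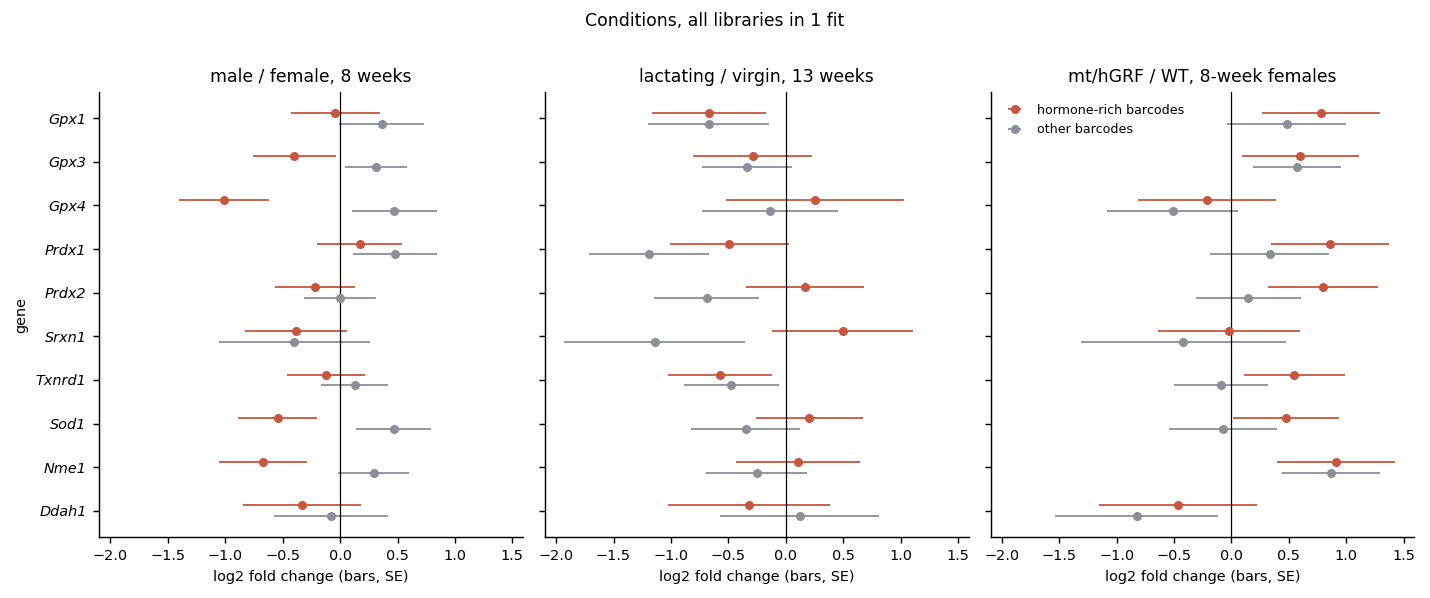
Log2 fold change of each gene (vertical axis) for males against females, lactating against virgin and mt/hGRF against WT females (panels), in hormone-rich and other barcodes. Bars are 1 standard error derived from the edgeR test. No gene passes the adjusted threshold in any panel; the values run from -1.19 for Prdx1 in the lactating panel to 0.91 for Nme1 in the mt/hGRF panel.

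The platforms gave different levels for several members. Over all kept barcodes Gpx4 was 4.30 and 5.76 in the 10X Genomics libraries and 0.104 to 0.578 in the 8 Drop-seq libraries, with no overlap. In the fit with group as a term, 29.5% of genes in the other barcodes differed between platforms, and Gpx4, Sod1, Nme1 and Prdx1 were higher on 10X Genomics with either scaling, at 5.04, 2.56, 2.24 and 1.98 with TMM and 3.94, 1.47, 1.15 and 0.90 with totals. Ddah1 was lower there, at -1.47 with TMM and -2.57 with totals. In hormone-rich barcodes, where 11% of genes differed, Gpx4 was higher, at 2.96 with TMM and 2.79 with totals, and Ddah1 lower, at -2.91 and -3.08. Prdx1 averaged 6.12 in hormone-rich and 3.57 in other barcodes on 10X Genomics, against 3.46 and 1.67 on Drop-seq. Male against female is the only condition measured on both platforms. The change between hormone-rich and other barcodes also differed between platforms, for Gpx1, Gpx4, Sod1 and Nme1 with either scaling, against 8.54% of all genes called by edgeR with TMM and 21.5% with totals. The difference for Gpx3 was 0.00 ± 0.52 with TMM and 0.83 with totals (log2, SE, edgeR adjusted p = 1.0 and 0.075).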

How the data were processed

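Droplet single-cell RNA-seq was measured in 10 pituitary libraries. The authors deposited UMI counts per gene and barcode, raw and not normalized. For Drop-seq they counted unique strand-matched exonic reads on mm10. The submitters' processing notes name STAR 2.5.2a and Cell Ranger, whose version is not given in the sources used here. The study's limits were applied: at least 300 UMIs, 100 to 4000 genes and under 10% mitochondrial UMIs for Drop-seq, 200 to 3000 genes and under 10% for 10X Genomics. No doublet caller was run. The study also removed low-quality, doublet, red blood cell and natural killer cell clusters from its Drop-seq data, which was not repeated here. Its background correction of Gh, Prl and Pomc was not applied, so the hormone shares use uncorrected counts. A barcode joined a class when it showed at least 2 distinct markers of it and more than of any other class; globin-gated ones had globin genes at 20% of UMIs or more. Classes with at least 20 barcodes in at least 3 libraries were tested.

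UMIs were summed per library and tested with edgeR 4.0.16 (R 4.3.3; DESeq2 1.42.0 as an alternative), two-sided, with Benjamini-Hochberg adjustment over all genes. The edgeR standard errors were derived from its test, as the absolute log2 fold change divided by the square root of the F statistic. TMM was the scaling for the hormone and condition comparisons. For the classes, TMM had been planned as well, but on simulated data it gave false calls, so library totals replaced it and TMM became the alternative. Scripts were tested on simulated counts. The mt/hGRF and virgin groups had 1 library each, and the other groups had 2 to 3. For the conditions, p-values and standard errors rest on the spread between libraries within the groups of 2 to 3. Groups of 1 library have no spread of their own and borrow it. In the hormone and class comparisons, p-values measure the spread between libraries. UMI counts carry counting error beside it.

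By rule, named genes were all 10 members, the 6 of 45 other redox genes with the largest called change (3 more of that list were named after their values were seen), and for each member the 3 genes with the highest Pearson correlation of log2(level + 0.1) among genes with a mean level of at least 0.5. Members and lists were chosen with earlier results of these data known. Sequences came from the GENCODE vM21 annotation's transcripts and RefSeq promoter windows. Same-numbered 8-week male and female libraries deviated together from their group means (correlation over genes 0.791, 0.432 and 0.580 in hormone-rich and 0.945, 0.717 and 0.803 in other barcodes). These group means mix platforms. Within Drop-seq, the difference of replicates 2 and 3 correlated between the sexes at 0.335 and 0.340. The numbers, which replicates 2 and 3 share with codes in the sample titles, and in replicate 1 with the platform, were therefore taken as pairs. These pairs entered the male against female comparison only as an alternative. The values printed for it come from the fit with group and platform, without a replicate term. Alternatives covered scaling, low-count filter, hormone limits, barcode choice, markers, platform and each library left out.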

Additional observations from a re-analysis of the deposited data

Results flagged for a closer look

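For 4 members the change between hormone-rich and other barcodes differed between the platforms, by a test of the difference itself (edgeR interaction term, 10X Genomics minus Drop-seq, chosen after the data had been seen). The platforms were compared over the 2 10X Genomics and 8 Drop-seq libraries, and 8.54% of 10986 genes were called. The log2 difference was -3.41 ± 0.44 for Sod1, -2.17 ± 0.44 for Gpx4, -2.03 ± 0.43 for Gpx1 and -1.98 ± 0.40 for Nme1 (SE, edgeR adjusted p = 1.0e-06, 0.00054, 0.00096 and 0.00053), so the ratio of hormone-rich to other barcodes was lower on 10X Genomics in each. With library totals as the scaling, under which 21.5% of genes were called and the median of all genes moved from -0.07 to 0.78, the differences were -2.57, -1.34, -1.20 and -1.15, with edgeR adjusted p = 6.5e-06, 0.015, 0.027 and 0.023.

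Nme1 was higher in hormone-rich barcodes on either platform, at 3.87 and 2.54 against 1.71 and 1.92 in the 10X Genomics libraries. Sod1 and Gpx1 were lower in hormone-rich barcodes of both 10X Genomics libraries, and Gpx4 was too. In these libraries 127 proliferating barcodes held 2320 Sod1, 2432 Gpx4, 902 Gpx1 and 740 Nme1 UMIs. The 3027 barcodes that were not hormone-rich held 3279, 3804, 1553 and 1320. The proliferating barcodes were also deep, with medians of 21090 and 23417 UMIs outside the hormone genes in the female and the male. The medians of barcodes that were not hormone-rich were 1111 and 849. These UMI counts thus depend on depth as well as level. The mean levels of Sod1, Gpx4, Gpx1 and Nme1 were 8.76, 8.98, 3.32 and 2.79 in proliferating barcodes. In all barcodes that were not hormone-rich they were 4.46, 5.17, 2.13 and 1.82. Prdx1 had a difference of -1.18 that passed with TMM (edgeR adjusted p = 0.037) but not with totals (0.46). Only 8-week WT mice were measured on 10X Genomics, and the cause of the difference was not tested.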

How the results depend on the processing

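Gpx3, Ddah1, Nme1 and Prdx2 were called higher in hormone-rich barcodes under all 23 alternatives to the comparison, at log2 fold changes of 2.03 to 2.73, 1.86 to 2.81, 1.11 to 1.82 and 0.71 to 1.30. Prdx1 and Srxn1 were called under 22, Txnrd1 under 16, Gpx1 under 9 (lower in 7, higher in 2), Sod1 under 6 and Gpx4 under 3. Prdx1 was not called at a limit of 20% hormone share, at 0.44, with the range of its alternatives' adjusted p from 1.1e-13 to 0.12. Signs reversed with a call for Gpx1 against hormone-class barcodes at 1.81 and in somatotrope-gated barcodes at 1.06, and for Gpx4 without pseudogene-rich barcodes at 0.66, against hormone-class barcodes at 0.81 and at 300 to 1000 UMIs at 0.78. Of 230 values of single members, 203 kept their direction and side of the threshold or stayed short of it, and for the conditions all 960 stayed short of it, with 50 changes of sign.

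Members called lower in hormone-rich barcodes numbered 1 (Gpx1) with no low-count filter, at a limit of 20%, without barcodes ending in N, and with globin genes out of the totals, the last 2 chosen after seeing the data. Leaving out 1 library gave 6 to 8 called higher and 0 to 1 lower. In somatotrope-gated barcodes DESeq2 and TMM each called 1 higher, and TMM 7 lower, with 32.1% of all genes called under TMM. Gonadotrope-gated ones had 5 lower with TMM and 1 with at least 3 markers, and melanotrope-gated ones 2 with at least 3 markers. Proliferating barcodes had 0 higher and 1 lower without pseudogene-rich barcodes, with at least 3 markers and in Drop-seq only, and 1 lower among barcodes that are not hormone-rich. In stroma-gated barcodes 2 were lower with DESeq2, with TMM and without hormone-rich barcodes, and in macrophage-gated ones 3 without hormone-rich barcodes. Globin-gated barcodes had 2 higher with DESeq2, TMM and globin genes out, and 1, 0 and 1 lower. The cause of these shifts was not tested.

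Leaving out 1 library gave 0 to 1 higher and 1 to 3 lower in proliferating barcodes, with 1 lower without either replicate 1 or either replicate 3 of the 8-week mice. It gave 2 to 3 higher and 3 to 4 lower in somatotrope-gated, 2 to 3 lower in gonadotrope-gated, 5 to 6 in melanotrope-gated and 7 to 8 in globin-gated barcodes, and no change in the lactotrope-gated, macrophage-gated and stroma-gated counts or in any condition. With the replicate number of the 8-week mice as a block, 0 members were called between male and female, so the pairing changed no call. Small counts limit Ddah1 in hormone-rich barcodes of 10X Genomics (7 and 17 UMIs), Gpx4 in those of Drop-seq (3 to 19 UMIs a library) and Srxn1 in macrophage-gated and proliferating barcodes (18 and 10 UMIs in all).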

Other observations

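The list of 45 other redox genes was also counted in the marker-gated classes (edgeR, library totals, adjusted p under 0.05 over all genes). In macrophage-gated barcodes 16 of 38 tested were higher and 9 lower, against 26.3% and 40.4% of all genes, with a median log2 fold change of 0.29 for the list and -0.33 for all genes. In melanotrope-gated barcodes 17 of 33 were lower and 0 higher, against 17.8% and 13.3%, with a median of -0.75. In gonadotrope-gated barcodes 8 of 37 were lower and 0 higher, against 5.38% and 7.43%, with a median of -0.61 and 0.19 for all genes, and in lactotrope-gated ones 9 of 39 were lower and 2 higher, against 11.3% and 21.5%, with medians of -0.29 and 0.26. Somatotrope-gated barcodes had 7 of 40 higher and 7 lower, against 34.6% and 10.1%, and stroma-gated ones 5 of 42 higher and 0 lower, against 5.95% and 2.25%. Proliferating barcodes had 1 of 42 higher and 9 lower, against 3.68% and 18.9%, and globin-gated ones 3 of 27 higher and 24 lower, against 1.81% and 96.2%. These are counts and medians of a list chosen with earlier results of these data known, and the comparisons share barcodes.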
